A study of Mus with 12 samples.

Results

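The genes described here encode 7 families of drug and steroid metabolizing enzymes of mouse liver. They comprise the cytochromes P450 (Cyp), UDP-glucuronosyltransferases (Ugt), cytosolic sulfotransferases (Sult), carboxylesterases (Ces), flavin monooxygenases (Fmo), aldehyde dehydrogenases (Aldh) and hydroxysteroid dehydrogenases (Hsd). A gene was taken when its symbol began with one of these family names followed by a digit and when it had an m6A peak in at least 1 mouse. This gave 65 of the 7906 genes with a peak, carrying 319 of 68562 peaks. Overlapping peaks of different mice were merged into regions, and the 65 genes held 102 of 18374 regions.

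MeRIP-seq, in which an m6A antibody enriches methylated mRNA fragments that are sequenced beside the unselected input RNA, was performed on livers of 6 separate male C57BL/6J mice. From 6 weeks of age, 3 mice (HFD 1 to HFD 3) received a high-fat diet with 60% of the energy from fat for 12 weeks, and 3 mice (WT 1 to WT 3) received a low-fat diet with 10%. WT thus names the diet control, and groups follow the sample titles because the treatment label reads high-fat diet on all 12 samples, controls included. The 6 input samples were not analysed here.

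Cytochromes P450, flavin monooxygenases, aldehyde dehydrogenases and hydroxysteroid dehydrogenases oxidize or reduce drugs, steroids, retinoids and fatty acids, and carboxylesterases cleave ester bonds in drugs and lipids. Glucuronosyltransferases and sulfotransferases then attach a sugar acid or a sulfate, which makes the products more soluble for excretion in bile or urine. Hepatocytes carry most of this capacity, and in mice many of these genes differ between the sexes under the control of growth hormone. m6A is the most common internal modification of mRNA, is written cotranscriptionally by a methyltransferase complex, and is known for its effects on the stability and translation of transcripts.

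The lists held 10109 to 12966 peaks per library, and read numbers were not given with them, so no detection limit could be set. The values below are the fold enrichment of immunoprecipitate over input that the authors' peak caller gave, which is at least 2 in every listed peak and was not scaled between libraries. Since a peak needs methylation, expression and depth together, and fewer cells of a type cannot be told apart from less RNA per cell in bulk liver, a missing peak does not show an unmethylated transcript. Of 12 hepatocyte markers, 4 (Apoa1, Apob, Ttr and Fgb) had a peak, with 2 or 3 in each library and a summed fold enrichment of 19.6 to 28.9 in HFD and 16.0 to 21.9 in WT livers, while the defining marker Alb had none. Of 20 skeletal muscle markers, 12 were listed in the library of WT 2 and 15 in that of WT 3, while the other 4 libraries each listed 1. Their summed fold enrichment was 235 in WT 2 and 386 in WT 3, and 3.83 to 8.06 elsewhere. WT 2 and WT 3 therefore stand apart from WT 1, and values that rest on them are given library by library.

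Between 34 and 46 of the 65 genes had a peak in a given liver. HFD 1, HFD 2 and HFD 3 had 46, 38 and 36 of them, and WT 1, WT 2 and WT 3 had 35, 34 and 38, so that the groups overlapped. The mean was 40.0 ± 5.29 genes in HFD livers and 35.7 ± 2.08 in WT livers (SD, n = 3 each), a difference of 4.33 genes that was smaller than the SD of the HFD livers and fell to 1.33 without HFD 1. As a share of all genes with a peak in the same library, the family genes made up 0.679% ± 0.0366 in HFD and 0.630% ± 0.0336 in WT livers (SD, n = 3 each).

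These genes were found in fewer of the 6 livers than genes in general. Of the 102 regions, 25 (24.5%) were found in all 6 libraries, against a background of 34.0% over all 18374 regions, and 34 (33.3%) were found in 1 library only, against 23.7%. Counted by gene, 20 of 65 (30.8%) had a peak in all 6 libraries, against 49.2% of all genes, and 20 (30.8%) in 1 library only, against 14.1%. Of the 34 single-library regions, 18 came from HFD 1, which also had the most peaks of the HFD lists. The regions of 2 livers on the same diet had a mean Jaccard index, the shared regions over those found in either, of 0.571 (0.470 to 0.635, 6 pairs), and those of livers on different diets 0.507 (0.427 to 0.578, 9 pairs). These ranges overlapped.

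**Figure D1:**
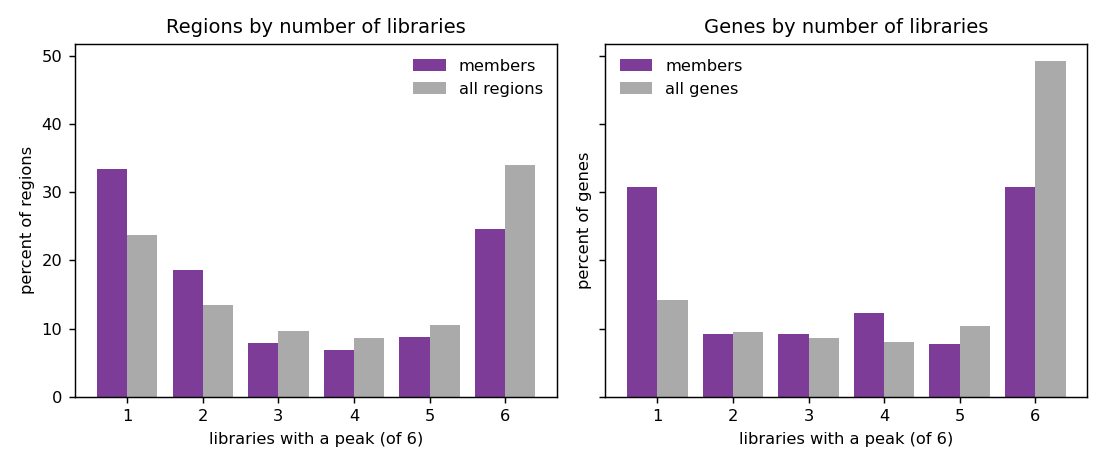
Share of regions and of genes (percent, vertical axis) found in 1 to 6 libraries (horizontal axis), for the drug and steroid metabolizing enzyme genes (purple) and for all regions or genes (gray). The enzyme genes had a smaller share in all 6 libraries (24.5% against 34.0% of regions) and a larger share in 1 library (33.3% against 23.7%).

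By family, the Cyp genes had the most members, 33 with 48 regions, followed by Ugt with 9 genes, Hsd with 7, Ces with 6, Sult with 4, and Fmo and Aldh with 3 each. All 3 Aldh genes had a peak in every liver, as did 3 of 6 Ces, 3 of 7 Hsd, 3 of 9 Ugt, 2 of 4 Sult and 6 of 33 Cyp genes. None of the Fmo genes did. More HFD than WT libraries had a peak for 25 genes (38.5%, background 22.8%) and more WT libraries for 14 (21.5%, background 17.7%). The number was equal for 26 of 65 genes, against 4703 of 7906 over all genes, so both unequal shares lay above their background. A gene found in all 6 libraries always counts as equal. Fewer of these genes were found in all 6 (30.8% against 49.2%), which leaves more room for unequal counts in either direction. Of the 25, the Ugt family gave 5 of its 9 genes and the Ces family 3 of its 6 (background 22.8%). No Ugt, Ces or Sult gene had peaks in more WT libraries (background 17.7%). Of these Ugt genes, Ugt1a6a, Ugt2a3 and Ugt2b5 had a peak in HFD 1 only. Of the 20 genes seen in 1 library, 9 were seen in HFD 1, and these counts were not tested.

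**Figure D2:**
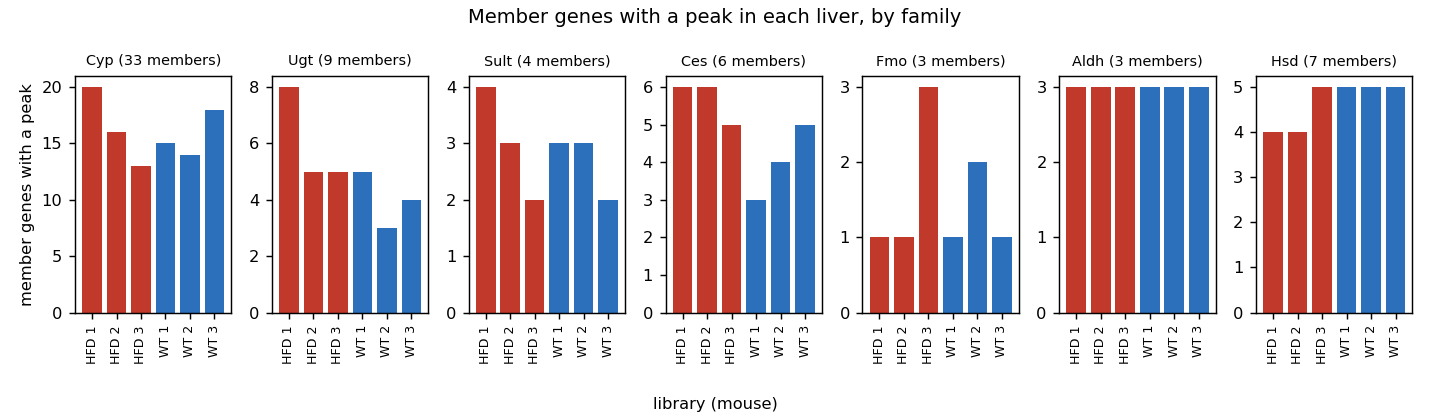
Number of genes with a peak (vertical axis) in each of 3 HFD (red) and 3 WT (blue) livers, in 1 panel per enzyme family. The Aldh genes had a peak in all 6 libraries, and the highest bar of the Ugt panel is HFD 1 with 8 of 9 genes.

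**Figure D3:**
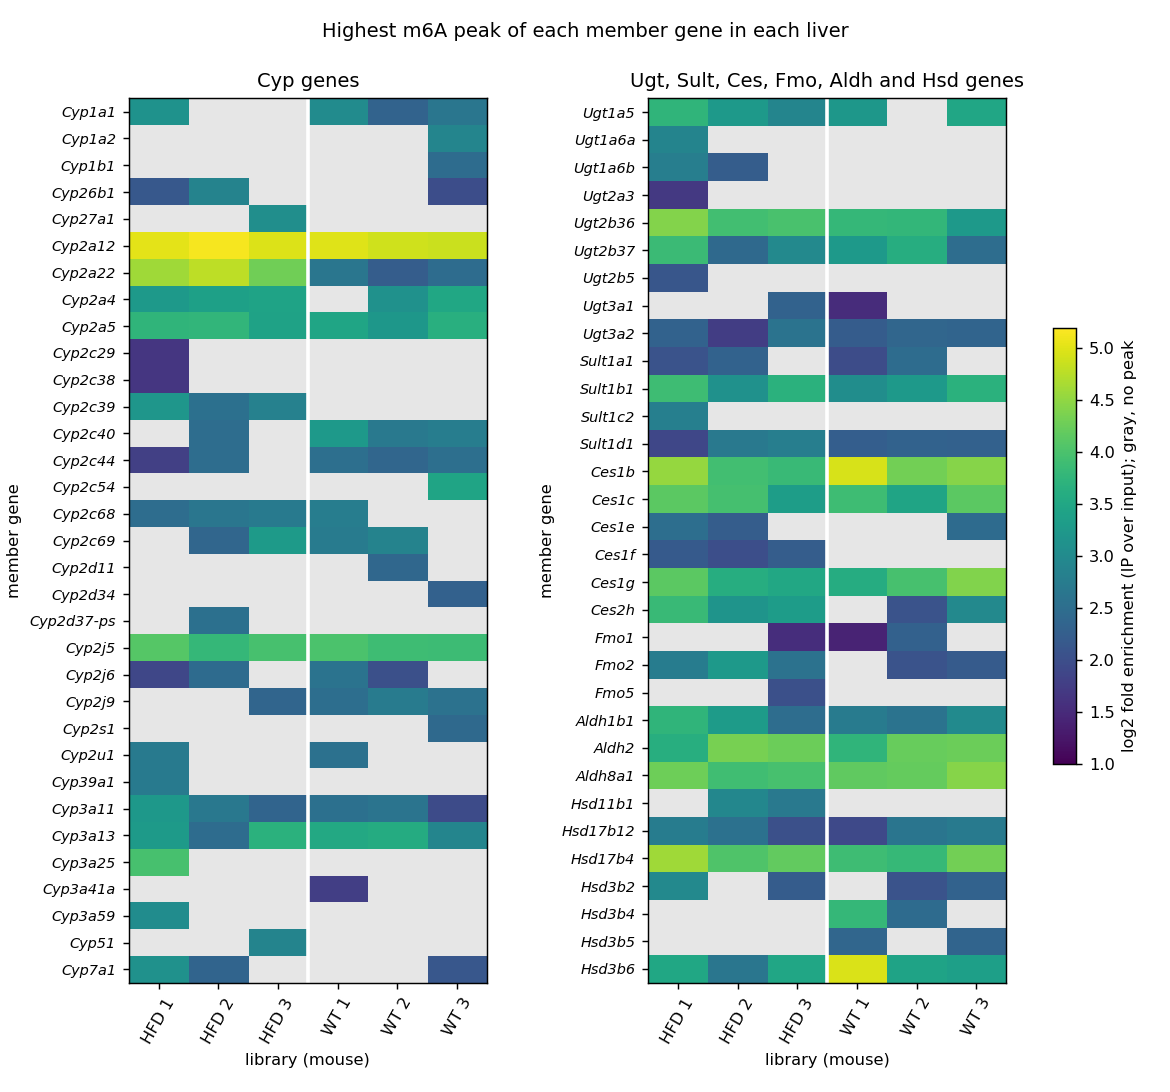
Log2 fold enrichment (color) of the highest m6A peak of each of the 65 genes (rows) in each liver (columns, HFD left of the white line and WT right), with gray where no peak was listed. Of the 65 genes, 20 are colored in all 6 columns and 20 in 1 column only, and Cyp2a22 has its 3 higher values in the HFD columns.

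Among the cytochromes P450, the Cyp2a genes, which hydroxylate steroids and small toxicants such as coumarin, had a peak in 4 of 4 coding genes. The only difference between the diets that passed a test was found in Cyp2a22, a gene counted among the female-biased genes of mouse liver. Its main region, chr7:26931631-26932532 (GRCm38), reaches the lower-coordinate end of the RefSeq gene. The study places Cyp2a22 on the minus strand, where this is the end and not the start of the transcript. The fold enrichment there was 24.2, 27.4 and 19.6 in HFD 1, HFD 2 and HFD 3, and 6.25 in WT 1 and 5.60 in WT 3, with no peak in WT 2. All HFD values were above the 2 listed WT values, and the mean of 23.7 ± 3.94 (SD, n = 3) was 4.0 times the WT mean of 5.93 ± 0.460 (SD, n = 2). Within each list the region ranked at the 91 to 95.0 percentile of all peaks in HFD livers and at the 34.5 and 24.2 percentile in WT 1 and WT 3.

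This Cyp2a22 region lacked a peak in WT 2, so it was not in the fit of regions found in all 6 libraries and was tested among the 9147 regions found in at least 2 libraries of each group, with WT 2 left out. There the log2 fold enrichment, centred on the median of each library, was 2.0 higher in HFD (SE 0.29, limma with Benjamini-Hochberg adjustment, adjusted p = 0.0196). It was the only region called higher in HFD (background 0.0109%) and 1 of 35 regions of these families in that fit. In a fit of the highest peak of each of 3892 genes, the Cyp2a22 difference was 2.05 (SE 0.24, limma, adjusted p = 0.00491). WT 2 entered there with 4.70 from a second Cyp2a22 region (chr7:26936309-26936485), which was also listed in HFD 3 (5.78). This fit thus set WT 2 at 1 site against the HFD livers at another, and otherwise used the values of the region fit. Cyp2a22 was the only gene called (background 0.0257%), and 1 of 20 genes of these families had an unadjusted p under 0.05 (background 4.8%). With 1 library left out at a time, the region's difference stayed between 1.82 and 2.18, but the adjusted p of limma rose above 0.05 without HFD 1 (0.277), HFD 2 (0.305), WT 1 (0.0911) or WT 3 (0.140). For the highest peak of the gene, the adjusted p with 1 library left out was 0.0107 to 0.0417. The region had 6.25 in WT 1, which listed 1 muscle marker, and 5.60 in WT 3, which listed 15. WT 2, which listed 12, had no peak there. Any relation of these values to the muscle peaks was not tested. The region also lies in a RefSeq pseudogene (LOC115486453), and the Cyp2a genes are close paralogs, so reads shared between copies could contribute to its value. The study lists Cyp2a22 mRNA as higher in HFD livers and counts the gene among those with a differentially methylated peak. How far expression contributes to these peak values was not tested.

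**Figure D4:**
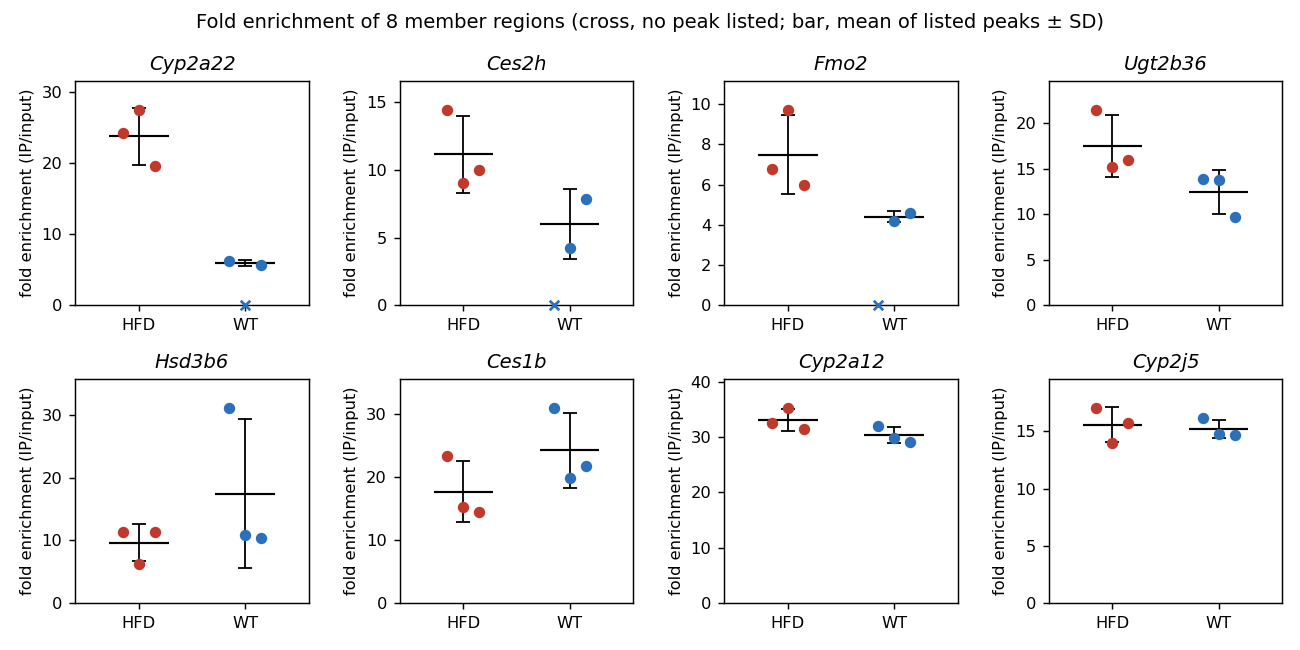
Fold enrichment (immunoprecipitate over input, vertical axis from 0) of 8 regions in 3 HFD (red) and 3 WT (blue) livers, with a cross where no peak was listed and bars for the mean of the listed peaks ± SD. Cyp2a22 lies at 19.6 to 27.4 in HFD and at 5.60 and 6.25 in 2 WT livers, while the groups overlap in Hsd3b6, Ces1b, Cyp2a12 and Cyp2j5.

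The other Cyp2a genes showed much smaller differences. Cyp2a12, a steroid hydroxylase, had the highest rank of all these regions (mean percentile 95.9), at chr7:27036465-27036815. Its fold enrichment was 32.5, 35.2 and 31.5 in HFD and 32.0, 29.9 and 29.1 in WT livers, and the groups overlapped (log2 difference 0.08, SE 0.23, limma, adjusted p = 0.999). Cyp2a5, the coumarin hydroxylase, had 13.5, 13.6 and 10.7 in HFD and 11.1, 9.38 and 12.5 in WT livers, which also overlapped. The paralog Cyp2a4, a testosterone hydroxylase with a close sequence, had 9.54, 10.4 and 10.8 in HFD livers and 8.4 and 11.4 in WT 2 and WT 3, with none in WT 1. A second Cyp2a4 region (chr7:26312767-26312954) was listed only in WT 2 (8.73) and WT 3 (5.60), the 2 libraries with the muscle peaks.

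The Cyp2c genes, which include arachidonic acid epoxygenases and steroid hydroxylases, had a peak in 8 of 15 coding genes but none in all 6 livers. Cyp2c39 was listed in the 3 HFD livers, at 9.18, 5.88 and 7.16 (chr19:39510822-39511038), and in no WT liver. In contrast, Cyp2c40 was listed in the 3 WT livers at 9.69, 6.51 and 6.86 and in HFD 2 at 5.68. Cyp2c69 and Cyp2c68, neighbors of Cyp2c40 in the same cluster, did not share 1 pattern. Cyp2c68 had 5.65, 6.25 and 6.61 in HFD livers and 6.84 in WT 1, and a Cyp2c69 region (chr19:39859816-39859957) had 6.69 in WT 1 and 7.39 in WT 2 only. The epoxygenase Cyp2c44 had 1 region in HFD 1 (3.38) and all WT livers (5.2 to 5.78), and a region less than 1500 bases away only in HFD 1 (3.48) and HFD 2 (3.03). Cyp2c29, Cyp2c38 and Cyp2c54 had a peak in 1 liver each. The RefSeq bounds of Cyp2c39 also span Cyp2c38, and reads of such paralogs may be shared.

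Cyp2j5, an arachidonic acid epoxygenase, was similar between livers, with 17.1, 13.9 and 15.8 in HFD and 16.1, 14.8 and 14.7 in WT livers (log2 difference -0.01, SE 0.24, limma, adjusted p = 0.999). Its paralog Cyp2j9 was listed in HFD 3 (5.16) and all WT livers (5.73 to 6.72). Of the Cyp3a genes, the main drug-oxidizing P450s of liver, 5 of 9 coding genes had a peak. Cyp3a11 had 9.46, 6.41 and 5.10 in HFD and 5.87, 6.10 and 3.87 in WT livers, with overlapping groups. Cyp3a13 had 9.79, 5.60 and 12.8 in HFD and 11.7, 12 and 7.55 in WT livers, and the groups overlapped again. Cyp3a25 (15.7) and Cyp3a59 (8.27) were seen in HFD 1 only, and Cyp3a41a (3.45) in WT 1 only. The Cyp3a41a region lies in the RefSeq gene Cyp3a41b and outside Cyp3a41a itself, so its assignment is uncertain.

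The P450s of bile acid synthesis were listed in few livers. Cyp7a1, the rate-limiting enzyme that converts cholesterol to bile acids, had a region near one gene end (chr4:6266041-6268508) in HFD 1 (8.71) and HFD 2 (5.10) and in no WT liver. Its second region (chr4:6272304-6272890) was found in HFD 1 (5.73) and WT 3 (4.40). Cyp27a1, the sterol hydroxylase that starts the alternative pathway, was listed at 8.42 in HFD 3 only, and Cyp39a1, an oxysterol hydroxylase, at 6.62 in HFD 1 only. Cyp51, which acts in cholesterol synthesis, was listed at 7.44 in HFD 3 only.

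Cyp1a1, Cyp1a2 and Cyp1b1, targets of the aryl hydrocarbon receptor, had peaks in 4, 1 and 1 libraries. Cyp1a1 had 8.82 in HFD 1 and 8.17, 5.04 and 6.29 in the WT livers. Cyp26b1, which degrades retinoic acid, had 4.46 in HFD 1 and 4.0 in WT 3 in 1 region and 7.37 in HFD 2 in another. The flavin monooxygenases oxidize nitrogen and sulfur in drugs. Fmo2 had 6.78, 9.70 and 5.99 in HFD livers and 4.20 and 4.59 in WT 2 and WT 3 (chr1:162898174-162898665). All HFD values were above the 2 listed WT values, and the log2 difference was 0.74 (SE 0.30, limma, adjusted p = 0.971). Fmo1 was listed at 2.92 in HFD 3, 2.68 in WT 1 and 4.93 in WT 2, and Fmo5 at 4.08 in HFD 3 only.

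All 3 aldehyde dehydrogenases with a peak were found in every liver. Aldh2, the mitochondrial enzyme that clears acetaldehyde, had 12.3, 20.2 and 19.2 in HFD and 13.5, 18.6 and 19.1 in WT livers, spans that overlapped almost completely. Aldh1b1, another mitochondrial form, had 13.4, 9.92 and 5.66 in HFD and 6.71, 6.05 and 8.07 in WT livers. Aldh8a1, which acts in tryptophan breakdown, had 2 regions in all 6 livers whose differences had opposite signs. At chr10:21377291-21377478 its values were 8.48, 4.98 and 7.17 in HFD and 4.76, 4.64 and 3.67 in WT livers, with no overlap. At chr10:21395388-21396585 they were 19.3, 15 and 15.8 in HFD and 18.0, 18.6 and 21.7 in WT livers, with overlap. The log2 differences were 0.59 (SE 0.28) and -0.27 (SE 0.22), and neither passed the test (limma, adjusted p = 0.999 for both). Once each library was centred, the groups overlapped in the first region and no longer did in the second.

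Hsd17b4, the multifunctional enzyme of peroxisomal β-oxidation and bile acid side-chain shortening, had 4 regions, 3 of them in all 6 livers. Its highest region had 24.4, 16.6 and 18.2 in HFD and 14.8, 14.1 and 19.7 in WT livers, and the groups overlapped (log2 difference 0.24, SE 0.23, limma, adjusted p = 0.999). Hsd17b12, a reductase of fatty acid elongation, had 4.06 to 6.76 in HFD and 3.80 to 6.63 in WT livers. Hsd11b1, which regenerates active glucocorticoid from its inert form, was listed in HFD 2 (7.73) and HFD 3 (6.49) at chr1:193263948-193264054, and in no WT liver.

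The Hsd3b genes, which encode steroid dehydrogenases and ketosteroid reductases, were listed more unevenly. Hsd3b6 had 11.3, 6.24 and 11.2 in HFD livers and 31.1, 10.8 and 10.3 in WT livers, where WT 1 alone was high (log2 difference -0.75, SE 0.41, limma, adjusted p = 0.999). Hsd3b5, a male-specific reductase of mouse liver, had 5.24 in WT 1 and 5.11 in WT 3 (chr3:98618636-98619818) and no peak in HFD livers. Hsd3b4 had 13.9 in WT 1 and 5.38 in WT 2 in 1 region and 8.45 and 5.54 in the same livers in another, which lies in the RefSeq gene Gm10681 and outside Hsd3b4 itself. Hsd3b2 had a region in HFD 1 (7.88), WT 2 (4.19) and WT 3 (5.0), and a neighboring region (chr3:98710734-98712317) in HFD 1 (3.40) and HFD 3 (4.68) only. These genes are near-identical copies in 1 cluster, so their assignment is uncertain.

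Of the carboxylesterases, 5 of 8 Ces1 and 1 of 7 Ces2 coding genes had a peak. Ces1b had 23.2, 15.3 and 14.4 in HFD and 30.9, 19.9 and 21.8 in WT livers, with overlapping groups (log2 difference -0.51, SE 0.26, limma, adjusted p = 0.999). Ces1c, the secreted esterase of mouse plasma, had 3 regions in all 6 livers, and in 1 of them (chr8:93120268-93120372) all HFD values, 8.31, 9.16 and 6.92, were below the WT values, 10.8, 10.4 and 11.4. This difference of -0.47 (SE 0.25) did not pass the test (limma, adjusted p = 0.999), and the other 2 Ces1c regions overlapped between diets. Ces1g, a hepatic lipid hydrolase, had 17.7, 12.3 and 11.4 in HFD and 12.2, 15.7 and 21.2 in WT livers in its higher region. Ces1f was listed in the 3 HFD livers only, at 4.57, 4.01 and 4.70 (chr8:93256236-93256600). Ces2h had 14.4, 9.07 and 9.99 in HFD livers and 4.20 and 7.87 in WT 2 and WT 3, with none in WT 1, and the listed values did not overlap (log2 difference 0.93, SE 0.32, limma, adjusted p = 0.919).

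Among the conjugating enzymes, the Ugt2b genes glucuronidate steroids and drugs. Ugt2b36 (chr5:87091801-87092555) had 21.4, 15.2 and 15.9 in HFD and 13.9, 13.8 and 9.64 in WT livers. All HFD values were above all WT values, with means of 17.5 ± 3.40 and 12.4 ± 2.42 (SD, n = 3 each), but the log2 difference of 0.45 (SE 0.27) did not pass the test (limma, adjusted p = 0.999). Ugt2b37 had 14.5, 5.44 and 7.86 in HFD and 9.70, 12.2 and 5.66 in WT livers, with overlapping groups. Ugt3a2, whose human counterpart transfers sugars other than glucuronic acid, ranged from 3.38 to 6.03 in HFD and from 4.65 to 5.25 in WT livers. The Ugt1a genes share their last exons in 1 locus and were listed as Ugt1a5, Ugt1a6a and Ugt1a6b. Ugt1a5 had 13.5, 9.65 and 7.51 in HFD livers and 9.36 and 11.2 in WT 1 and WT 3. Ugt1a6b was listed in HFD 1 (6.92) and HFD 2 (4.70) at chr1:88106862-88107799 only, and Ugt1a6a in HFD 1 (7.40) only.

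Sult1b1, which sulfates thyroid hormones and phenols, had 7 regions, more than any other gene of these families. Its highest region had 14.9, 8.75 and 12.9 in HFD and 6.66, 9.57 and 12.8 in WT livers. Another (chr5:87530589-87530686) was listed in the 3 HFD livers at 7.06, 5.21 and 5.66 and in no WT liver. The remaining regions were found in 1 to 5 libraries. Sult1d1, a catecholamine sulfotransferase of mice, had 3.71, 6.08 and 6.98 in HFD and 4.62, 5.02 and 4.94 in WT livers. Sult1a1, a phenol sulfotransferase, was listed in 2 livers of each diet, at 4.21 and 5.01 in HFD and 3.93 and 5.58 in WT.

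The fit of regions in all 6 libraries called none of the 25 regions of these families. Over all 6245 regions it called 0 in either direction (0.0% higher and 0.0% lower in HFD, limma with Benjamini-Hochberg adjustment), with 302 regions (4.84%) and none of the 25 at an unadjusted p under 0.05. The log2 difference of the 25 regions ran from -0.75 in Hsd3b6 to 0.59 in Aldh8a1, with 10 above and 15 below 0. Their median of -0.02 was that of all 6245 regions. In the wider fit, 4 of 35 regions had an unadjusted p under 0.05 (background 4.95%), those of Cyp2a22, Ces2h, Fmo2 and Aldh8a1, all higher in HFD, and Cyp2a22 alone passed the adjustment. All HFD livers were above all WT livers in 2 of the 25 regions, in Aldh8a1 and Ugt2b36 (background 4.64%), and all were below in 1, in Ces1c (background 3.68%). After centring, 1 of the 25 (Ugt2b36, background 4.48%) was above, and 2 (Ces1c and the other Aldh8a1 region, background 5.09%) were below.

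**Figure D5:**
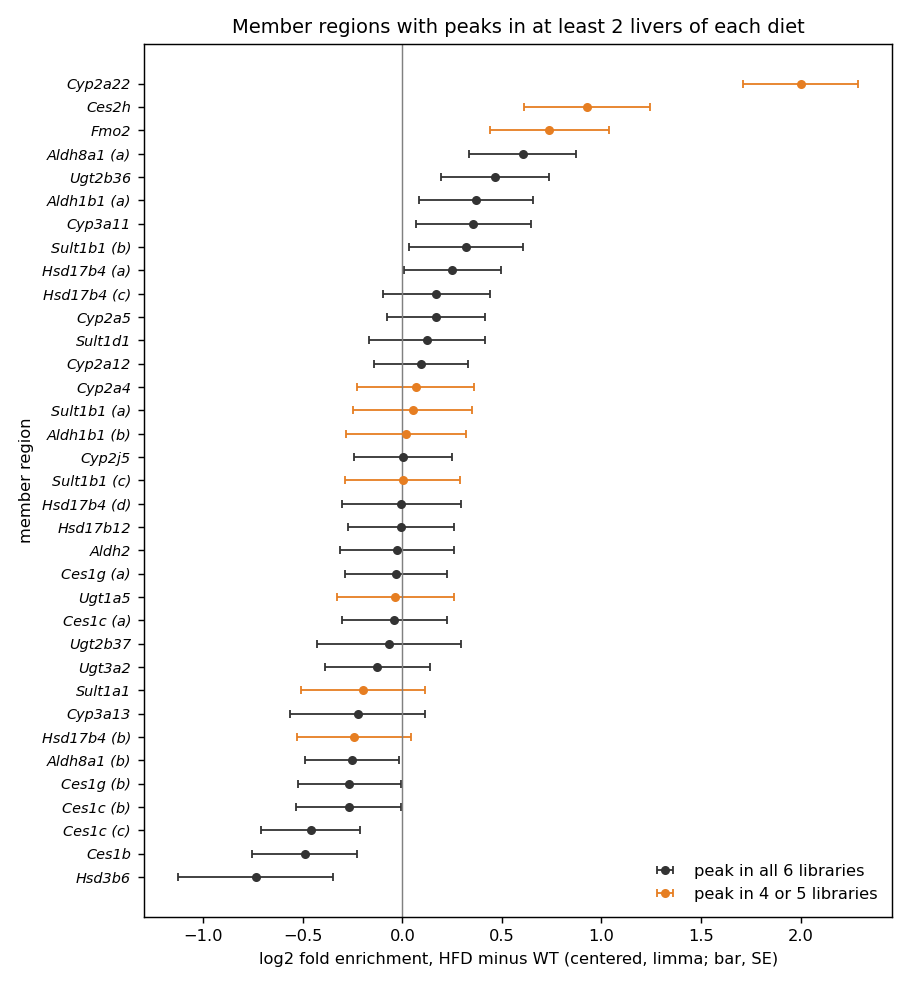
Difference in centred log2 fold enrichment, HFD minus WT (horizontal axis, points with SE from limma), for the 35 regions found in at least 2 libraries of each diet (rows, by gene). Cyp2a22 lies at 2.0, and the other 34 regions lie between -0.74 and 0.93.

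The regions found in 1 diet only were few. A peak in all 3 HFD and no WT livers was found in 3 of the 102 regions (background 0.718%), those of Cyp2c39, Ces1f and Sult1b1 given above. No region of these genes had the reverse pattern (background 0.294%). With at least 2 livers of one diet and none of the other, 8 regions were found in HFD (background 3.96%) and 5 in WT livers (background 2.74%). The 5 further HFD regions were those of Ugt1a6b, Hsd11b1, Hsd3b2, Cyp7a1 and Cyp2c44, and the 5 WT regions were in Hsd3b4 (2 regions), Hsd3b5, Cyp2a4 and Cyp2c69. Of the WT regions, 3 belong to the Hsd3b cluster. Counted by gene, with every region of the gene considered, 4 of 65 genes were listed in at least 2 HFD and no WT livers (background 2.97%) and 2 in at least 2 WT and no HFD livers (background 2.04%). Cyp2c39 and Ces1f were the 2 genes in all 3 HFD and no WT livers (background 0.721%), and no gene had the reverse (background 0.19%).

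Other genes of the same pathways were described from lists. Of 15 genes of bile acid synthesis and conjugation, 7 had a peak and 2, Hsd17b4 and the steroid reductase Akr1d1, had one in all 6 livers. Baat, which conjugates bile acids to taurine and glycine, was listed at 7.27, 5.67 and 6.04 in HFD livers and at 5.74 in WT 1. Cyp7b1 and Cyp8b1 had no peak. Of 27 steroid hormone and glucocorticoid enzymes 8 had a peak, of 16 retinoid enzymes 5, of 19 male-biased liver genes 6 and of 20 female-biased genes 8. In the retinoid list, Lrat, which esterifies retinol for storage, had 14.5, 13.1 and 9.54 in HFD and 19.1, 19.4 and 25.4 in WT livers. These groups did not overlap (3.68% over all regions before centring) and the difference did not pass the test. In the male-biased list, the highest peaks of Slco1a1 did not overlap either, at 7.5, 6.69 and 7.32 in HFD and 13.1, 12.2 and 8.8 in WT livers. No region of these lists was called in the fit of regions in all 6 livers, and the only region of the lists called in the wider fit was that of Cyp2a22, 1 of 4 female-biased regions there.

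The redox partners and other drug metabolizing enzymes were listed more broadly, with a peak in 28 of 61 genes and in all 6 livers in 12. Por, the reductase that passes electrons to microsomal P450s, had 14.8, 12 and 7.90 in HFD and 10.3, 10.6 and 11.2 in WT livers. Cyb5r3, the cytochrome b5 reductase, had 25.5 to 31.2 in HFD and 32.2 to 35.0 in WT livers, groups that did not overlap (3.68% over all regions) but did not pass the test. The glutathione transferase Gsta1 (4.68, 3.36 and 5.19) and the alcohol dehydrogenase Adh7 (8.79, 5.05 and 6.25) were listed in the 3 HFD livers and in no WT liver (background 0.721%). Of 21 regulators of these genes 13 had a peak, 7 of them in all 6 livers, including Ahr, Nr0b2, Nfe2l2 and Stat5b. Bcl6, a repressor that acts in the sex bias of liver genes, had 7.16, 5.81 and 5.10 in HFD livers and none in WT livers (background 0.721%). The study lists Bcl6 mRNA as higher in HFD livers, and how far expression contributes was not tested. The xenobiotic receptor genes Nr1i2 and Nr1i3 had no peak.

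Most genes of these families had no listed peak. RefSeq counts 209 protein-coding genes in the 7 families, of which 64 (30.6%) had a peak, against 34.6% of all 21900 coding genes, and the remaining gene was the pseudogene Cyp2d37-ps. The share was 32.3% of 99 Cyp, 40.9% of 22 Ugt, 19.0% of 21 Sult, 31.6% of 19 Ces, 42.9% of 7 Fmo, 14.3% of 21 Aldh and 35.0% of 20 Hsd genes. In the 6 lists used here, no peak was given for any of 20 Cyp4 genes, which include fatty acid hydroxylases regulated by PPARα. The same held for 5 Cyp2b genes, some of which respond to phenobarbital, and for 9 Sult2 genes, which sulfate steroids and bile acids. Among the genes without a peak in these lists were Cyp2e1, Cyp2f2, Cyp2b9, Cyp2d9, Cyp4a10, Cyp4a12b, Cyp4a14, Cyp4a31 and Ugt2b38. The study names peaks in Cyp2b9, Cyp4a12b, Cyp4a31 and Ugt2b38 from its own comparison of the groups, whose table was not used here. Among genes with peaks here, the study lists a lower Hsd3b5 peak, lower Ugt2b37 mRNA and higher Cyp2a22 mRNA in HFD livers. It also counts Ugt2b37 and Cyp2a22 among the genes with a differentially methylated peak. In the lists used here, the Ugt2b37 values overlapped between the diets.

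The regions of these genes lay near a gene end more often than regions in general. Of the 102 regions, 51 (50%) were within 1500 bases of either end of the RefSeq gene, against 35.3% of all regions, and the lists give no strand, so the ends were not separated. The median length was 251.5 bases, against 258 for all regions. The genes lay on 14 chromosomes, with 13 genes on chromosome 5, 8 on chromosome 19 and 7 on chromosome 1, where the Ugt2b, Sult1 and Cyp3a, the Cyp2c, and the Ugt1a and Fmo clusters are found. In all, 99 regions overlapped the RefSeq bounds of their own gene. Another gene was overlapped by 8 regions, among them an Hsd3b4 region and the Cyp3a41a region, which lie outside their own gene. An Hsd3b2 region also lies outside its own gene and overlapped no other. In the annotation deposited with the peaks, steroid hormone biosynthesis was given for 30 of the 65 genes, retinol metabolism for 25 and linoleic acid metabolism for 15, which follows from the choice of families.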

How the data were processed

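The authors called peaks per mouse, immunoprecipitate over input. Tools in the submitters' processing notes are MACS2 2.1.0, Bowtie 1.1.2, Trimmomatic 0.33 and bcl2fastq 2.17. For reads that match several paralogs, the treatment was not given in the sources used here. The notes name a human build, but 99.5% of regions with a matched gene overlapped it in mouse GRCm38. The deposited fold enrichment is a ratio of immunoprecipitate to input without scaling between libraries. The deposited score is minus 10 times the log10 of the p-value (at least 50). The deposited FDR column was taken as percent (25 to 100), and the authors' peak length as bases.

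Peaks sharing at least 1 base were merged over the 6 lists, and the highest fold enrichment of a region was taken in each library. Log2 values, centred on each library's median, were compared with limma 3.58.1 (trend, R 4.3.3) over all 6245 regions in all 6 libraries, with Benjamini-Hochberg adjustment and a threshold of 0.05. The script was tested on simulated data with 100 changed regions per size. The fit recovered 25% of them at a log2 change of 1 and 95% at 2, with 6 false calls. Differences of the smaller size would thus often be missed. Exact permutation of 3 mice against 3 cannot give a p below 0.1, so none is reported. Replicates were separate mice. The genes, lists and tests were chosen with earlier results of these data known.

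Genes were named when a region was listed in 1 diet only, when a region was called or was among the 5 smallest unadjusted p-values in each direction, as family leaders in all 6 libraries, when the study names them, and as members of the pathway lists. Other genes were chosen after their values were seen. Alternatives changed the centring, regions, overlap, peak threshold, unit, measure and libraries. No sequence is shown.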

Additional observations from a re-analysis of the deposited data

How the results depend on the processing

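The difference of 4.33 family genes per library ranged from 1.33 to 6.33 with 1 library left out and was 9.67 when peaks were counted. The count of regions in HFD livers only (3) ranged from 3 to 6 with 1 library left out, with 6 without HFD 3, and was 8 when at least 2 livers were asked for and 1 with stricter peaks, at or above the median of their list. The count in WT livers only (0) rose in every run with 1 library left out. It was 3 without WT 3, 2 without HFD 1 or HFD 3 and 1 without HFD 2, WT 1 or WT 2. With at least 2 livers it was 5, with lists of equal length 1, and with stricter peaks it stayed 0. In limma the number of regions called higher in HFD (0) was 1 with regions in at least 2 livers of each diet and 1 with genes in place of regions, Cyp2a22 in both. Under these alternatives the sign reversed for Aldh8a1 by gene (-0.27, where another region gives the highest peak) and, with the peak caller's score, for Ugt2b36 (-0.46) and Ces1g (0.40); the cause was not tested.

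Mice with equal numbers did not deviate together (r = -0.04, 0.02 and -0.22, and 1 of 6 libraries correlated best with its own number), so the numbers were not taken as pairs. A replicate block, added for Cyp2a22 after seeing the data as were its left-out libraries and the fit without centring, gave a log2 difference of 1.88 (limma, adjusted p = 0.280) for the region and 2.05 (adjusted p = 0.103) for the gene. Without centring these were 1.99 (adjusted p = 0.0433) and 2.1 (adjusted p = 0.00570). Sequencing depth is unknown, so a missing peak could not be set against a detection limit.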
